A study of Homo sapiens with 2 samples.

Results

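In the SpyCLIP-seq peak list of PQBP1, 225 of the 1489 peaks (15.1%, 95% Wilson interval 13.4% to 17.0%) spanned more than 1 window of the genome. These wide peaks are described here. The list cuts the genome into bins of 200 nt, and a peak is 1 bin or a run of neighbouring bins joined into 1 region. The wide peaks were selected on their measured width, 400 nt or more, so their width and the reads that made it are a description and not a finding. The other 1264 peaks were 1 bin wide. The wide peaks lay on 133 of the 718 genes with a peak (18.5%), and the remaining 585 genes had 1-bin peaks alone.

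HEY is a human ovarian cancer cell line, and the cells carried an overexpressed PQBP1 with a FLAG/Spy tag. They were irradiated with UV light at 400 mJ per cm2 to crosslink protein to RNA, nuclei were isolated, and the RNA was cut with RNase I before FLAG beads pulled PQBP1 down. The series has 1 IP library and 1 Input library of the same kind of cells, both from cells with the tagged protein, and the peak list gives values for the IP library alone. With 1 IP library there is no replicate, so no p-value is given for any comparison between peaks. Intervals cover counting error only, since the sources used here describe no molecular identifiers and neighbouring peaks of a gene are not independent.

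PQBP1 is a nuclear protein with a WW domain that binds other splicing factors, and it is known as a component of the spliceosome before its activation. In crosslinking and immunoprecipitation, UV light ties a protein to the RNA it touches, and the fragments that come down with the protein mark where it sat. A narrow peak arises when reads gather in 1 window, and a wide peak when neighbouring windows all pass the caller's threshold. Spliced messenger RNA, unspliced pre-mRNA and noncoding RNA can all carry either kind.

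Width did not always mean a long RNA. The 5 wide peaks with the most reads per bin were on short noncoding RNAs, and 7 of the RNAs with a wide peak were shorter than the 400-nt peak assigned to them. RMRP, the RNA of RNase MRP, an enzyme of ribosomal RNA processing, is shown because it is shorter than its peak, the wide peak with the most reads per bin. The sequence is the GENCODE release 44 transcript, written 5′ to 3′, with no part in capitals.
RMRP: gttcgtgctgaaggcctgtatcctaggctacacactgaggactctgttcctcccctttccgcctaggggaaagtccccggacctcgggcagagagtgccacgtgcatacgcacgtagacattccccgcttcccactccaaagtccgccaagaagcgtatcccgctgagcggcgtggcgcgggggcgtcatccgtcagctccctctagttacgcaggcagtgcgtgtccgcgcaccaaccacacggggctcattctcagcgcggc
RMRP, 264 nt long, had a 400-nt peak with 1346 reads. RPPH1, the RNA of RNase P, is 333 nt long and had 967 reads. RN7SL1 and RN7SL2 encode the near-identical RNAs of the signal recognition particle, so reads of one can be placed on the other and their separate values are uncertain. RN7SL1, at 299 nt, had 716 reads and RN7SL2, at 300 nt, had 463. The other RNAs shorter than their peak were the small Cajal body RNAs SCARNA13 (84 reads) and SCARNA12 (44 reads), which guide the modification of spliceosomal RNAs, and SNORD17 (40 reads), a small nucleolar RNA. None of the 7 is long enough to fill 2 bins. SCARNA2, a small Cajal body RNA of 420 nt, had 483 reads, and TERC, the telomerase RNA, had 97.

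Reads are given as the list's read value, which is the mean per bin, and as total reads, which is that value times the number of bins. The product was a whole number, within 0.01, for 1489 of 1489 peaks. The wide peaks held 23147 of the 39952 reads in peaks (57.9%) on 139 kb of the 392 kb that peaks covered (35.5%). A single pair of nuclear RNAs carried much of that. NEAT1, the scaffold of paraspeckles, and MALAT1, a long noncoding RNA of nuclear speckles, had 12 wide peaks with 8737 reads, 37.7% of all reads in wide peaks. With NEAT1 and MALAT1 left out, wide peaks held 46.2% of the reads in peaks.

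Most wide peaks were just over the threshold. There were 155 peaks of 400 nt, 31 of 600 nt and 39 of 800 nt or more. The 400-nt peaks lay on 114 genes and held 9276 reads, 23.2% of the reads in peaks. The 600-nt peaks, on 29 genes, held 1590 reads (3.98%). The peaks of 800 nt or more, on 20 genes, held 12281 reads (30.7%). The widest group was therefore few in number and rich in reads, chiefly through NEAT1. Just inside the threshold, a 400-nt peak had a median of 28 reads (quartiles 24 and 35). Just outside it, 34 pairs of 1-bin peaks of the same gene with 1 uncalled bin between them, and no further peak 1 bin away, had a median of 23 reads per pair (quartiles 20 and 28).

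Median read value per bin rose with width class among messenger RNA peaks. Over all types the median was 15 reads per bin in wide peaks (quartiles 12.3 and 19, range 7.5 to 673) and 10 in 1-bin peaks (quartiles 8 and 13, range 6 to 1138). Among peaks assigned to mRNA the medians were 14.5 and 10. They were 13.5 in 400-nt, 14.7 in 600-nt and 16.8 in wider mRNA peaks. The lowest wide peak was on the 3′ UTR of LUM, which encodes the matrix proteoglycan lumican, with 15 reads over 2 bins. The p-values that the peak caller gave were above 0.01 for 12.4% of wide peaks and 30.9% of 1-bin peaks. How the caller gave 1 p-value to a run of bins is not given in the sources used here, so the p-values of wide and 1-bin peaks may not be the same quantity.

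**Figure D1:**
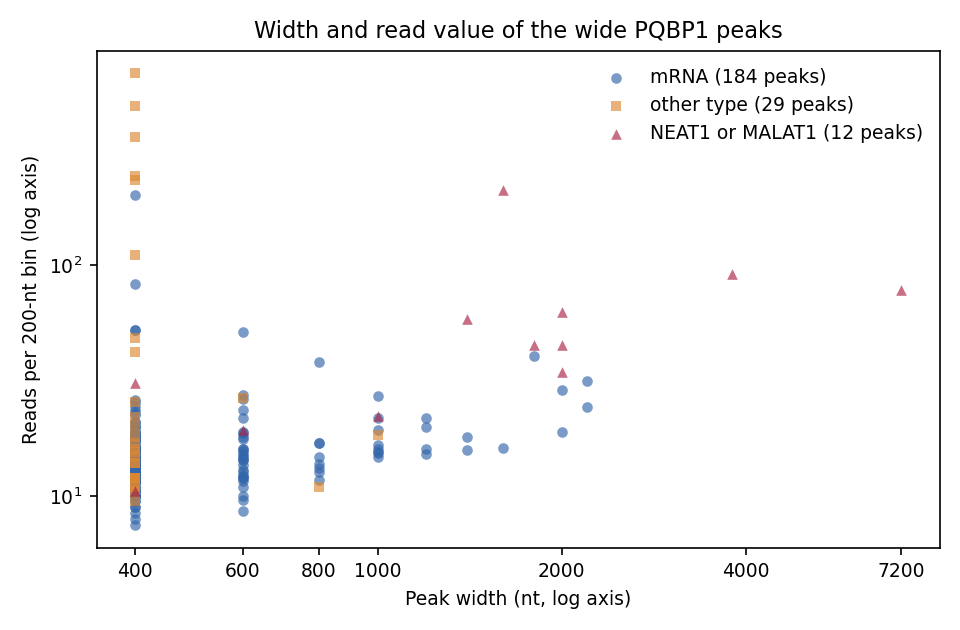
Each point is 1 of the 225 wide peaks, placed by its width in nt and its reads per 200-nt bin, both on log axes, and coloured by RNA type with NEAT1 and MALAT1 apart. The points with the most reads per bin stand at 400 nt on short noncoding RNAs, and the peaks of 3800 and 7200 nt are both on NEAT1.

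The region class of a peak was not used by the rule, but its shares changed with the reads and p-values that a peak had to reach. Exons held 154 wide peaks (68.4%, interval 62.1% to 74.2%) and 776 of the 1-bin peaks (61.4%, 58.7% to 64.0%), a difference of 7.05 points (0.183 to 13.4). This difference was not stable: among peaks with 10 or more reads per bin it was −1.59 points, among mRNA peaks alone it was 3.95 points (−3.70 to 11.1), and without the 20 genes that carried 3 or more wide peaks it was 1.39 points (−7.53 to 9.63). Introns held 41 wide peaks (18.2%) and 368 of the 1-bin peaks (29.1%), a difference of −10.9 points (−16.1 to −4.82). Among peaks with 10 or more reads per bin the intron difference was −0.980 points (−6.33 to 5.23). It was −2.55 points (−8.50 to 4.60) with p of 0.001 or less and −3.14 points (−11.4 to 7.72) with p of 1e-05 or less. On mRNAs, 1-bin intron peaks had a median of 8 reads and 1-bin exon peaks 11, and the part of read value in the intron difference was not tested further.

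Over all peaks, the 3′ UTR class was more frequent among the wide peaks, but this depended on the setting. It held 20 wide peaks (8.89%, 5.83% to 13.3%) and 60 of the 1-bin peaks (4.75%, 3.71% to 6.06%), a difference of 4.14 points (0.810 to 8.70). Among mRNA peaks alone the difference was 5.67 points (1.68 to 11.1), and among peaks with 10 or more reads per bin it was 2.37 points (−1.30 to 7.16). It was 3.36 points (−0.578 to 8.91) with p of 0.001 or less and 2.04 points (−2.41 to 10.2) with p of 1e-05 or less. With wide peaks taken from 600 nt the difference was −0.461 points (−3.57 to 7.18), an interval that spans both signs and includes 4.14. The widest 3′ UTR peaks were on HMGA1, which encodes a chromatin protein that bends DNA (800 nt, 55 reads), SHISA9 (600 nt, 48 reads) and SPARC, a matrix glycoprotein gene (600 nt, 47 reads). Of the 400-nt peaks, those on the cytoskeletal actin gene ACTB (52 reads) and the integrin gene ITGA3 (46 reads) had the most reads. Wide peaks of the remaining classes were few: 7 intergenic, 2 in 5′ UTRs and 1 in the class labelled stop codon. That peak held 219 reads over 400 nt. It was given to the microRNA gene MIR6723, which has no stop codon, so the class is a label of the annotation only. The 5′ UTR peaks were on FTL, the ferritin light chain gene (35 reads), and ITGA3 (34 reads). The widest intergenic peak, 800 nt with 51 reads, was given to PLEKHG4B.

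By RNA type, mRNA took a smaller share of the wide peaks. It held 184 wide peaks (81.8%, 76.2% to 86.3%) and 1154 of the 1-bin peaks (91.3%, 89.6% to 92.7%), a difference of −9.52 points (−15.3 to −4.72). Long noncoding RNA held 17 wide peaks (7.56%) and 28 of the 1-bin peaks (2.22%), a difference of 5.34 points (2.39 to 9.60). NEAT1 and MALAT1 gave 12 of those 17 wide peaks. Without them long noncoding RNA held 5 of 213 wide peaks (2.35%) and 25 of 1261 1-bin peaks (1.98%), a difference of 0.365 points (−1.27 to 3.46), and the mRNA difference was −5.13 points (−10.6 to −0.828). Of the reads in wide peaks, mRNA held 40.1% and long noncoding RNA 38.3%, and 8737 of the 8869 long noncoding reads were on NEAT1 and MALAT1. The type follows the transcript the annotation picked, and 8 of the 17 wide peaks typed as other ncRNA were on protein-coding genes: ACTG1 and TRIO with 2 each, and SFPQ, PRPF38B, TUBB and CCNL2.

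**Figure D2:**
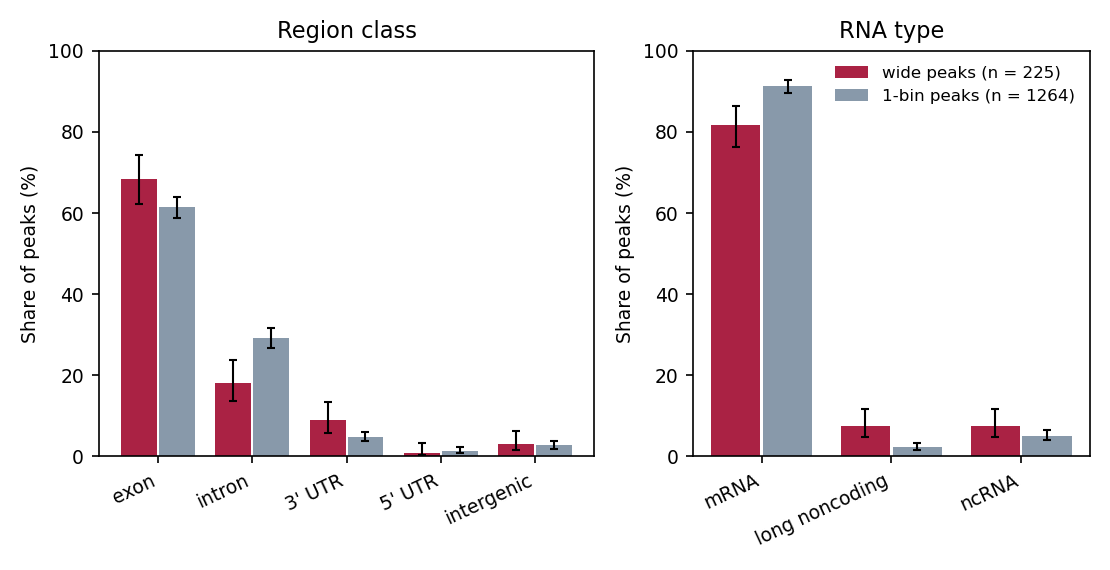
Bars give the percent of the 225 wide and 1264 1-bin peaks in each region class (left) and RNA type (right), with 95% Wilson intervals. The long noncoding share, with NEAT1 and MALAT1 included, was 7.56% of wide peaks and 2.22% of 1-bin peaks, and mRNA was 81.8% and 91.3%.

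NEAT1 carried the widest peaks of the list. Its 8 peaks were all wide, at 7200, 3800, 2000, 2000, 2000, 1800, 1400 and 400 nt. They held 2814, 1745, 625, 453, 346, 407, 409 and 62 reads in that order. Together they covered 20600 nt, equal to 90.6% of the length of its 22743-nt single-exon transcript. MALAT1 had 4 wide peaks of 7. Its 1600-nt peak held 1686 reads (211 per bin), more per bin than any NEAT1 peak. Its peaks of 1000, 600 and 400 nt held 111, 58 and 21 reads (22.2, 19.3 and 10.5 per bin), less per bin than the lowest wide NEAT1 peak at 31.

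The widest peaks on messenger RNAs were in SRRM2, which encodes a large serine- and arginine-rich protein of the spliceosome and of nuclear speckles. One peak of 2200 nt at chr16:2816001-2818200 held 346 reads (31.5 per bin), and another of 2200 nt at chr16:2812001-2814200 held 267 reads (24.3 per bin). All positions here follow the deposited list, with the first base of a chromosome as 1. The labels name hg38 (GRCh38), but only 15 of 216 wide peaks outside the intergenic class overlapped their own gene in the GRCh38 annotation. Most of these positions therefore do not follow GRCh38 and should not be read on it. The build they follow was not determined, so no sequence was read by position. A 1200-nt peak (131 reads) and 400-nt peaks of 51 and 31 reads completed the 5 wide peaks of SRRM2. They lay within 8000 nt of each other. The longest exon of the gene, all of it coding, is 6701 nt.

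EEF1A1, the elongation factor that brings tRNA to the ribosome, had a 2000-nt peak with 288 reads at chr6:74227201-74229200. The longest coding stretch of its main transcript is 297 nt, so this exon-class peak cannot lie within coding sequence of 1 exon. MAP1B, a microtubule-binding protein gene, had a 1800-nt peak with 365 reads at chr5:71490601-71492400, the most of any mRNA peak of 800 nt or more. The gene has a coding exon of 6502 nt. Its other 3 wide peaks were 1000 nt with 83 reads and 400 nt with 40 and 37 reads.

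PLEC, which encodes the giant cytoskeletal linker plectin, had 9 wide peaks of 15, 7 in exons and 2 in introns. The widest was 2000 nt with 189 reads at chr8:144989401-144991400, followed by peaks of 1600 nt (129 reads) and 1200 nt (96 reads). The range over its wide peaks was narrow, 13 to 20 reads per bin. MKI67, the proliferation marker Ki-67 that coats mitotic chromosomes, had 7 wide peaks of 9. The widest were 1400 nt each, with 127 and 111 reads, and the gene has a coding exon of 6845 nt. AHNAK, a giant scaffold protein gene with a coding stretch of 17328 nt, had 8 wide peaks of 21, the widest 1200 nt with 120 reads. ATN1, a transcriptional corepressor gene, had 3 wide peaks of 4, the widest 1200 nt with 92 reads.

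Some wide peaks were longer than the feature they were assigned to. CYR61, now CCN1, a secreted matrix-associated protein gene, had a 1000-nt exon peak with 136 reads and a 1000-nt intron peak with 109 reads. The longest intron of any of its transcripts is 354 nt, less than the intron-class peak. The same held for CXCL1, a chemokine gene, with a 600-nt intron peak (65 reads) and a longest intron of 531 nt. The other 39 of 41 wide intron peaks were no longer than the longest intron of any transcript of their gene. This compares lengths alone, so it does not show that a peak lies within an intron. The wide intron peaks with the most reads after CYR61 were on the collagen gene COL1A1 (600 nt, 79 reads), PLEC (78 reads), the fatty acid synthase gene FASN (1000 nt, 74 reads) and ACTB (600 nt, 71 reads).

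The actin gene ACTG1 had a 1000-nt peak (92 reads). Peaks of 800 nt were on VIM, the intermediate filament gene vimentin (153 reads), EIF4G1 (68 reads), TRIO (68 reads), COL1A1 (in an intron, 59 reads), LAMA5 (53 reads), ATN1 (47 reads) and the pseudogene PKD1P1 (44 reads).

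Short wide peaks could hold many reads. HSP90AA1, the inducible HSP90 chaperone gene, had a 400-nt peak with 400 reads, 200 per bin and the most reads of any mRNA peak. NCL, which encodes the nucleolar protein nucleolin, had a 400-nt peak with 165 reads and a 600-nt peak with 154. BAX, the pro-apoptotic BCL2-family gene whose splicing the study followed up, had a single peak of 400 nt with 26 reads. At 13 per bin it was below the median of 14.5 for wide mRNA peaks and near the 13.5 of 400-nt mRNA peaks. The longest exon of its main transcript is 267 nt, less than this exon-class peak, and the longest of any transcript is 989 nt.

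**Figure D3:**
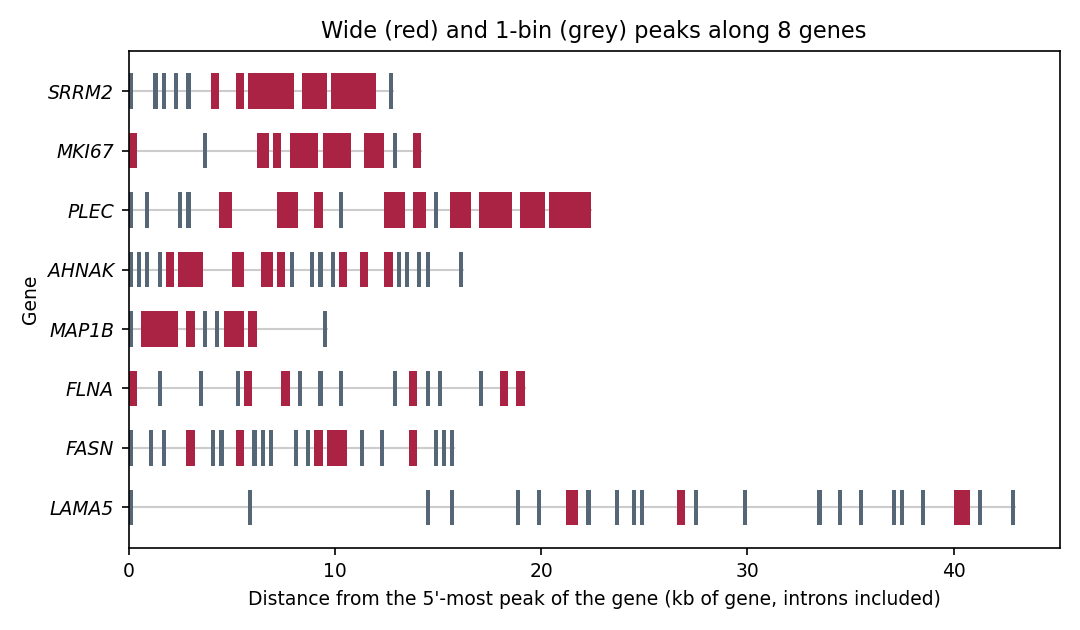
Each row is a gene, and boxes are its peaks drawn to scale by distance in kb from the 5′-most peak, introns included, with wide peaks in red and 1-bin peaks in grey. In SRRM2 the 5 wide peaks follow each other with no 1-bin peak between them, while in LAMA5 3 wide peaks stand among 20 narrow ones.

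Some genes carried several wide peaks. Of the 133 genes, 93 had 1 wide peak, 20 had 2, and 20 had 3 or more. The last 20 held 92 of the 225 wide peaks (40.9%), a description only, since they were taken by their count of wide peaks. NEAT1, MALAT1, SRRM2, MAP1B, PLEC, MKI67, AHNAK and ATN1 were among these 20 genes. Structural genes followed: FLNA, the gene of the actin crosslinker filamin A, had 6 wide peaks of 16, AGRN, the gene of the proteoglycan agrin, had 5 of 14, and the type I collagen genes COL1A2 and COL1A1 had 4 of 11 and 3 of 11. ITGA3 had 3 of 9 and LAMA5, a laminin chain gene, had 3 of 23. Among enzymes and signalling genes, FASN had 5 of 20, INPPL1, a lipid phosphatase gene, had 3 of 9, ITPR3, a calcium channel gene, had 3 of 10, and TRIO, a guanine nucleotide exchange factor gene, had 3 of 22. EIF4G1, the gene of a translation initiation scaffold, had 3 of 7, and RBM25, a splicing regulator gene, had 3 of 4. For LAMA5 and TRIO the wide share of their peaks was below the 15.1% of all peaks.

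Some wide peaks had a neighbour on the same gene across a single bin. Of 770 pairs of neighbouring peaks, 110 were exactly 1 bin apart, and 69 of 225 wide peaks against 129 of 1264 1-bin peaks had such a neighbour. Joining them gave 1379 peaks, 244 of them wide. The longest joined run was 16200 nt on NEAT1, from 5 peaks. On mRNAs the longest were 3600 nt on SRRM2 (477 reads), 3400 nt on PLEC (285 reads) and 3000 nt on MKI67 (238 reads).

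Genes with a wide peak had more peaks in all. Their median was 3 peaks (quartiles 1 and 7, maximum 23), against 1 (quartiles 1 and 1, maximum 10) for genes with 1-bin peaks alone. A gene with more peaks has more chances of a wide one, so this count is not independent of the rule. Of the 133 genes, 38 had wide peaks and no 1-bin peak.

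Gene structure was compared over 112 protein-coding genes with a wide peak and 540 without. The median longest exon was lower in the genes with a wide peak, at 1232.5 nt (95% interval of the median 885 to 1459) against 1492 nt (1301 to 1730), and the intervals overlapped. The longest coding stretch of 1 exon went the other way, at 352 nt (302 to 429) against 274 nt (259 to 319), and these intervals overlapped too. Genes with a wide peak were more compact, with a median span of 24030 nt (19913 to 32668) against 38522 nt (34239 to 42806), and a longest intron of 3903.5 nt (3191 to 6519) against 8317.5 nt (7050 to 9697). Among genes with 2 or more peaks the intervals overlapped for both, with spans of 26465 nt (20133 to 34514) and 34341.5 nt (26518 to 50411) and longest introns of 3721 nt (3110 to 7341) and 7912.5 nt (6208 to 10764). Median coding length was 2250 nt and 2242.5 nt. The share of genes with a wide peak was 11.3% where the longest coding stretch was under 200 nt (14 of 124 genes) and 24.4% where it was 2000 nt or more (10 of 41, 13.8% to 39.3%), but 12.1% between 1000 and 2000 nt (7 of 58), so it did not climb steadily.

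Most exon-class wide peaks could fit in 1 exon of their gene but many not in coding sequence of 1 exon. Of 127 on protein-coding genes, the longest exon of the main transcript was as long as the peak for 110 (86.6%), and the longest coding stretch for 72 (56.7%). With the longest exon of any transcript it was 125 (98.4%). Only lengths were compared, not positions. Of the 23 such peaks of 800 nt or more, 17 could fit in a coding stretch (73.9%).

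Wide peaks were counted over lists of genes chosen by name. Of the 20 extracellular matrix and adhesion genes with a peak, 12 had a wide one (60%, 38.7% to 78.1%), beside 18.5% of all genes with a peak. They included SPARC, the fibronectin gene FN1 and the collagen and laminin genes above. Of 26 cytoskeleton and linker genes, 12 did (46.2%, 28.8% to 64.5%), with PLEC, AHNAK, FLNA, VIM, ACTB, ACTG1, TUBB and the nonmuscle myosin gene MYH9 among them. The lists are not complete: TPM1, TPM2, CFL1, PFN1, TAGLN, CALD1 and MSN, cytoskeletal genes outside the list, had 1-bin peaks alone, and the matrix genes LUM and CYR61, also outside, had wide ones. These lists have many peaks a gene, and counted by peak the shares were closer to the 15.1% of all peaks, at 24.0% of 121 and 24.8% of 145 peaks. Of 38 ribosomal protein genes with a peak, 3 had a wide one (7.89%, 2.72% to 20.8%): RPS18, RPL10 and RPL19, each 400 nt with 26, 24 and 23 reads. Splicing and RNA-binding genes, taken by name pattern, stood at 9 of 34 (26.5%, 14.6% to 43.1%), with SRRM2 and NCL holding the most reads. The pattern also took in DDX11L16, a pseudogene with intergenic peaks, and without it the count was 8 of 33 (24.2%, 12.8% to 41.0%). Both intervals include the share of all genes, but the pattern leaves out much of this class. Among the genes it missed, LUC7L3, SREK1, SFPQ, NONO, CPSF1 and YBX3 had wide peaks. PNN, SF1, U2SURP, CLASRP, PSPC1 and YBX1, also missed, had 1-bin peaks alone. With p of 0.001 or less, 4 genes of the list had a wide peak. PQBP1 itself and the splicing factor gene SF3B1 had 1-bin peaks alone.

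The smaller lists rest on few genes, and are given beside the 18.5% of all genes with a peak. Wide peaks lay on 4 of 8 chaperone genes (HSP90AA1, HSP90AB1, HSPA5 and HSP90B1), 3 of 5 glycolysis genes (GAPDH, PKM and ENO1), 3 of 11 translation factor genes (EEF1A1, EIF4G1 and EIF5B), and 2 of 4 genes of fatty acid and cholesterol synthesis (FASN and SREBF1, the gene of a lipid synthesis regulator). They lay on 5 of 6 structured small RNAs, with RN7SK, the 7SK RNA that holds back transcription elongation, the one with a 1-bin peak. Of small Cajal body and small nucleolar RNAs, 4 of 16 had a wide peak (25%, 10.2% to 49.5%). The others had 1-bin peaks alone, among them SCARNA7 with 455 reads. Neither of the 2 histone genes had a wide peak. In all, 62 of 178 listed genes with a peak had a wide peak, DDX11L16 included, and 71 of the 133 genes were in no list. RNA abundance was not measured in the values used here, and its part in these shares was not tested.

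**Figure D4:**
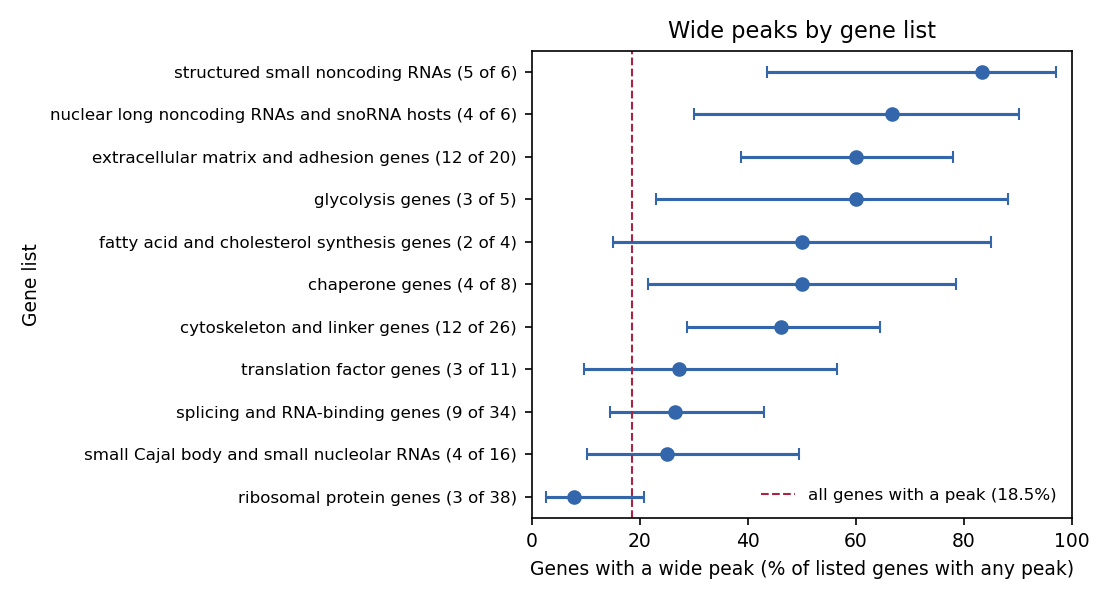
Points give the percent of the genes with a peak in each list that had a wide peak, with 95% Wilson intervals, and the dashed line marks the 18.5% of all genes. The matrix list (60%) and the cytoskeleton list (46.2%) lie above the line with their intervals, while the ribosomal list (7.89%) has an interval that reaches it.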

How the data were processed

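SpyCLIP-seq was done on HEY cells with FLAG/Spy-tagged PQBP1, with 1 IP and 1 Input library. The authors trimmed reads with Trimmomatic, removed ribosomal RNA with the use of RNAcentral, and aligned the remaining reads with TopHat2 2.0.13. They called peaks in 200-nt bins with Piranha and annotated them with HOMER. Per the labels the build is hg38, which most of the wide peaks checked did not match. The deposited list gives, per peak, a signal, here shown to be the mean reads per bin, and the p-value that the authors' caller gave, at most 0.0467. Total depth is not given in the sources used here, and the Input library was not analysed here.

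Total reads were computed as the read value times the number of bins. Wide peaks were compared with 1-bin peaks by counts, with Wilson, Newcombe and order-statistic intervals at 95% (Python 3.11.15, scipy 1.17.1), tested on simulated data. Gene models (GENCODE release 44) were matched by name for 708 of 718 genes. Columns of per-sample values not used numbered 0. Named genes were those with peaks of 800 nt or more, the 10 widest mRNA peaks, the 10 mRNA and 10 peaks of any type with the most reads, the 5 intron peaks and 5 peaks of the other classes with the most reads, genes with 3 or more wide peaks, and BAX; others named are list members or peaks chosen after their values were seen. The members and lists were chosen with earlier results of these data known. Some sequences are not reported here.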

Additional observations from a re-analysis of the deposited data

How the results depend on the processing

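The exon share difference between wide and 1-bin peaks was 0.923 points with p of 0.001 or less, 1.50 with p of 1e-05 or less, −1.59 (reversed) with 10 or more reads per bin, and 17.2 with wide set from 600 nt. The 3′ UTR difference was 3.36 points with p of 0.001 or less, 2.04 with p of 1e-05 or less and −0.461 (reversed) from 600 nt. The mRNA difference kept its sign, at −20.5 points with p of 1e-05 or less and −5.13 without NEAT1 and MALAT1, its smallest. The share of reads in wide peaks, 57.9%, was 59.0% and 59.1% at those p limits, 63.4% with 10 or more reads per bin, 45.2% from 600 nt, 62.3% with peaks 1 bin apart joined, 41.3% among mRNA peaks and 46.2% without NEAT1 and MALAT1. The difference in median reads per bin, 5, was 3 at p of 0.001 or less, 3.33 with 10 or more reads and 6.8 from 600 nt. The difference in median longest exon, −286 nt over all genes, was −787 nt for genes with exactly 1 peak, −777 nt for genes with exactly 2 bins and 77.5 nt for the longest coding stretch. Listed genes with a wide peak, 62, were 21 from 600 nt, fewer by construction. The cause of the other shifts was not tested. The omission of NEAT1 and MALAT1, the 2-bin, coding-stretch and pseudogene settings and those of the intron, 3′ UTR and long noncoding shares were chosen after seeing the data. No paired analysis was possible because the IP and the Input were a single library each. With no second IP and no untagged control, neither the spread between cultures nor background binding can be given.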
